A study of Mus musculus with 6 samples.

Results

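The 48 genes described here encode the route by which glucose is taken up, stored, split to pyruvate and burned in the mitochondrion. They were chosen by symbol, not by measured values: 2 glucose transporters, 17 glycolytic enzymes and regulators of glycolysis, 2 lactate dehydrogenase subunits, 2 glycogen enzymes, 5 genes of the pyruvate dehydrogenase complex and its kinases, 13 of the tricarboxylic acid (TCA) cycle, 3 of the malate-aspartate shuttle and 4 mitochondrial carriers and creatine kinase. All 48 have an identifier among the 54838 genes of the count table, and 47 had enough counts to be tested. The remaining gene, Pfkfb2, had between 0.0842 and 0.84 CPM (counts scaled to a common library size, as in edgeR), and only 7.8% of its exon length is free of other genes.

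Glycolysis splits glucose into pyruvate in the cytosol, with the steps of hexokinase and phosphofructokinase as points of control. Pyruvate either becomes lactate or enters the mitochondrion, where the pyruvate dehydrogenase complex passes it to the TCA cycle, and pyruvate dehydrogenase kinases can close that gate. The heart draws most of its energy from fatty acids and uses glucose, glycogen and lactate beside them, and many of these steps have an isozyme typical of striated muscle and another found widely in other tissues.

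Atrial RNA was sequenced from 6 old mice, 1 library per mouse, to compare wild-type (WT) mice with mice lacking PKC-epsilon, a protein kinase whose gene is Prkce. All were untreated as far as the labels say, of both sexes (not given per mouse), with a mean age of 20.9 ± 0.43 months (kind of error not given). The labels contradict each other for 4 of the 6 libraries, so each comparison is given by library name, the first reading, and by genotype field, the second. By library name there are 3 WT libraries (WT1, WT2, WT3) and 3 knockout libraries (KO1, KO2, KO3), numbered by the replicate number of the sample title. The genotype field instead gives WT, on the C57BL/6J line, for WT1, KO2 and KO3, and PKC-epsilon knockout, on the line with JAX stock number 004189, for KO1, WT2 and WT3. The names of WT1 and KO1 start with Old and those of the other 4 with a number; what that marks is not said, and within the 4 numbered libraries the readings are mirror images.

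Prkce itself did not follow either reading. It stood at 36.2, 11.7 and 30.2 CPM in WT1, WT2 and WT3 and at 9.2, 5.15 and 28.6 CPM in KO1, KO2 and KO3, so WT2 and KO3 went against their library names, and KO2 and WT3 against their genotype field. Its log2 fold change, KO over WT, was -0.85 (SE 0.72) by library name and -0.45 (SE 0.79) by genotype field (edgeR quasi-likelihood test, adjusted p = 0.99993 and 0.957). Every direction below is therefore one between libraries as labelled. Total counts ran from 11574206 to 24138824 per library, of which the 48 genes took 2.88% to 3.18% and transcripts of the mitochondrial genome 17.4% to 19.5%. The atrial transcripts Nppa, Myl7 and Sln were present in every library, the lowest value being 2142 CPM for Sln in WT1, and the labelled tissue was atrial. Summed Y-linked transcripts were near 1 CPM in WT1 and WT2 and between 78.9 and 146 CPM in the other 4 libraries. By library name both low libraries are WT and no KO library is low, so the Y-linked level is partly confounded with group. By genotype field WT1 is WT and WT2 is KO. These are bulk samples, in which fewer cells of a type and less RNA per cell cannot be told apart.

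In these atria Pgam2, the muscle phosphoglycerate mutase, lay far above Pgam1, its widespread isozyme, and Eno3, the muscle enolase, far above Eno1. For these 4 genes the 250 bases before the transcription start are shown, because the levels of the paired isozymes lie so far apart in the same libraries; the values guided the choice of these genes. The levels of Pgam1 and Eno1 are uncertain, because other genes share part of their sequence, as given with their values. The sequences are from RefSeq (GRCm38.p6), 5′ to 3′ on the strand of the gene: chr11:5803797-5804046 on the minus strand, chr19:41911621-41911870 and chr11:70656926-70657175 on the plus strand, and chr4:150236458-150236707 on the plus strand before the most upstream of 3 Eno1 starts. Capitals mark matches, on either strand, to the E-box letters CANNTG, which bind basic helix-loop-helix factors such as those of muscle, and to the motif of MEF2, a factor of striated muscle.
Pgam2: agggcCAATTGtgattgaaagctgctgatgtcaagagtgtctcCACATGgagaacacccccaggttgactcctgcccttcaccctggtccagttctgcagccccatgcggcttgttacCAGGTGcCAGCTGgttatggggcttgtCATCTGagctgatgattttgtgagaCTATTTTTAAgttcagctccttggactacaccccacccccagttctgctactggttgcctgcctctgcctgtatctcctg
Pgam1: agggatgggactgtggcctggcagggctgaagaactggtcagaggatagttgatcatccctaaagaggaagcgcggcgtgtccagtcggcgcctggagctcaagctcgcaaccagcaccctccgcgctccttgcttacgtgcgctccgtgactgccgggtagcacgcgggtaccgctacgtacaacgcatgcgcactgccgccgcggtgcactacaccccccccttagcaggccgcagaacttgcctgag
Eno3: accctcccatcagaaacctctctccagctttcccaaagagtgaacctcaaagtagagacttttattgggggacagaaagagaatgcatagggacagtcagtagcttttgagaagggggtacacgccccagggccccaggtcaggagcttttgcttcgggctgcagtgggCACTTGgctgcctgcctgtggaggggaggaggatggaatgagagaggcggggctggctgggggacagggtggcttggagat
Eno1: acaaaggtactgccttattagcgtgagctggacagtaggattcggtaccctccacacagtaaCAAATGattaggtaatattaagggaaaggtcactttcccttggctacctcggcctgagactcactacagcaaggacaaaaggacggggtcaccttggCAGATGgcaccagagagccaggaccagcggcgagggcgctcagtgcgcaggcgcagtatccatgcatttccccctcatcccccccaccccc
The Pgam2 window held 5 E-boxes, and the MEF2 match CTATTTTTAA begins 80 bases before the start. Eno3 had 1 E-box, Eno1 had 2, and Pgam1 had none; only Pgam2 among the 4 had a MEF2 match. Pgam1 alone among them held ACGTG, the core of sites of hypoxia-inducible factor, which overlaps the E-box where CACGTG is read. Of 48 genes, 46 matched the RefSeq table, with 68 windows; Idh3a and Slc2a4 did not. E-box letters were in 51 of the 68 windows, against 66.2% of all 32851 windows of that length. The MEF2 motif was in 2 of the 68, against 2.9%, and ACGTG in 25 of the 68, against 16.6%. A match of letters is a description and does not show that a factor binds there.

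No gene of the set passed the test in either reading. By library name, 30 of the 47 tested genes had a log2 fold change above 0 and 17 below, with a median of 0.03 against -0.02 over all 14708 genes tested, and a range from -0.46 (Slc2a1) to 0.25 (Pfkfb1). By genotype field, 25 were above 0 and 22 below, with a median of 0.04 against -0.01, and a range from -0.78 (Gapdh) to 0.29 (Eno1). In edgeR's quasi-likelihood test with Benjamini-Hochberg adjustment, 0 of 47 genes passed adjusted p 0.05 by library name, where 0.0% of all genes tested passed, and 0 of 47 by genotype field, where 0.0136% passed (2 genes). At an unadjusted p under 0.05 the count was again 0 of 47 in both readings, against 1.49% of all genes tested by library name and 5.69% by genotype field. The smallest adjusted p of the set was 0.99993 by library name and 0.904 by genotype field. DESeq2 and limma-voom also called none of the 47. With the replicate number as a block, the count of all genes called by genotype field rose from 2 to 51 (0.347%) and that by library name stayed at 0, while the set stayed at 0 in both.

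How large a difference between the groups as labelled these libraries leave room for varied by gene. The intervals take the labels as right. With labels in conflict, they do not bound the effect of losing PKC-epsilon. The 95% interval of the log2 fold change lay wholly within ±0.5 for 35 of the 47 genes by library name and for 32 by genotype field, and within ±1 for 44 and 45. The widest intervals were those of Gapdh, from -1.14 to 1.13 by library name and -1.66 to 0.11 by genotype field. The split by library name, 30 above 0 and 17 below, was not stable: it was 37 and 10 with upper-quartile scaling, 16 and 31 with the Y-linked level as a covariate (median -0.06) and 21 and 26 without WT2 (median -0.02). By genotype field, 25 above and 22 below became 34 and 13 without WT2 (median 0.10) and 21 and 26 without KO1 (median -0.02). In the 4 numbered libraries alone the median of the set was 0.01 by library name, with 27 above 0 and 20 below, and the mirrored -0.01 by genotype field; the 2 libraries named Old, 1 per group, allow no test.

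**Figure D1:**
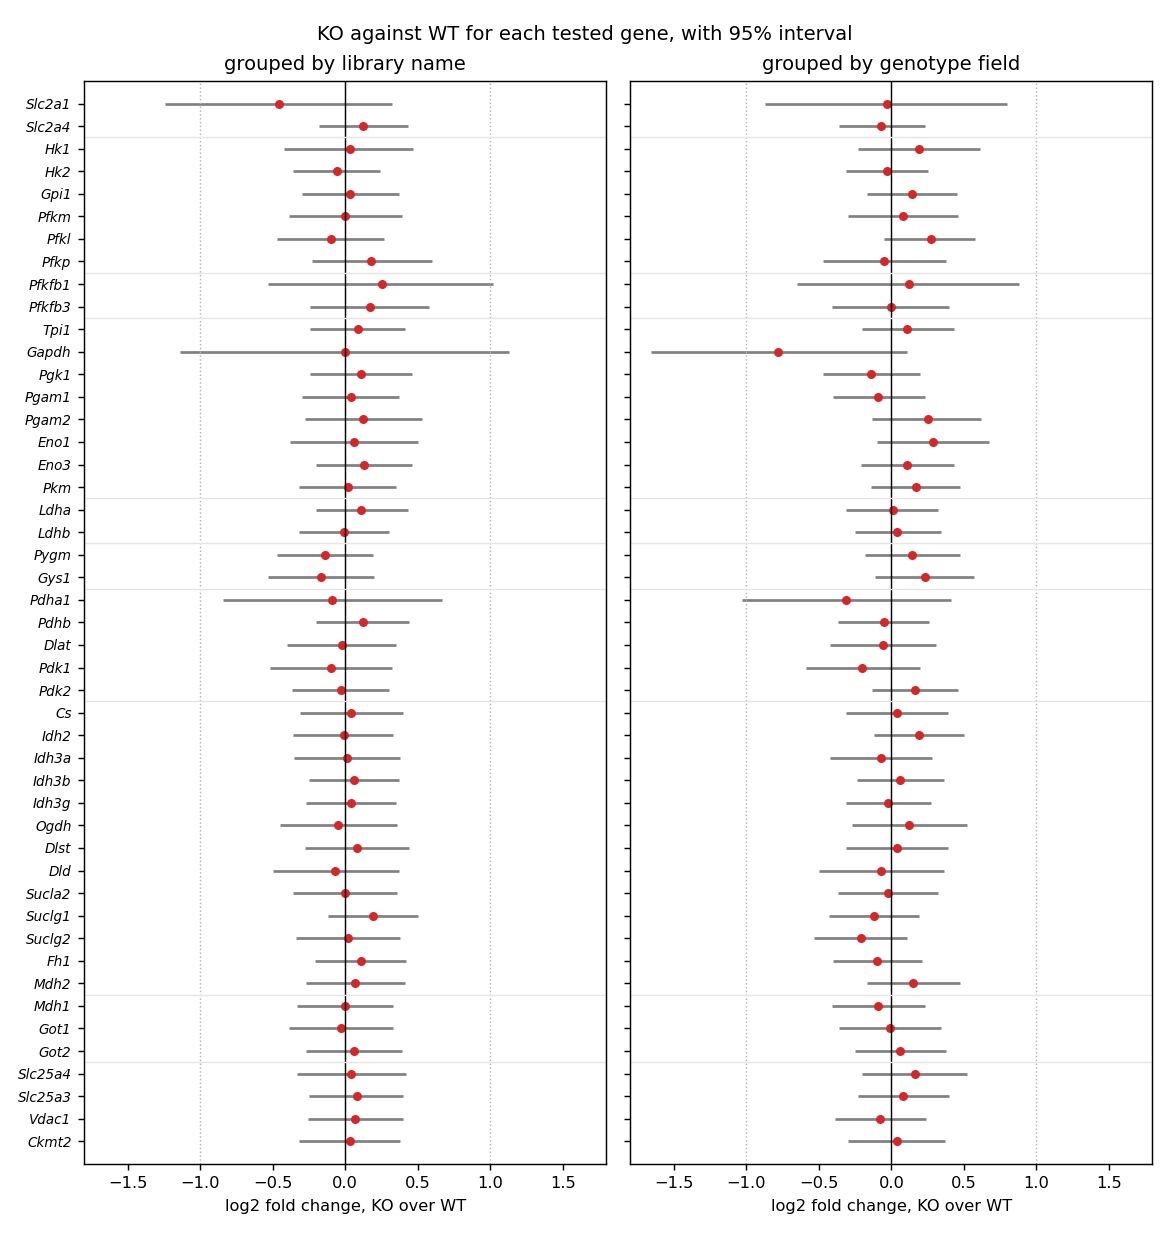
Log2 fold change of KO over WT (horizontal axis) for each of the 47 tested genes, with points for the estimate and lines for its 95% interval from edgeR's quasi-likelihood fit; the left panel groups the 6 libraries by library name and the right panel by genotype field, and horizontal lines part the roles. Every interval crosses 0 in both panels, and 35 intervals on the left and 32 on the right lie within ±0.5.

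Values below are CPM after TMM normalisation. Levels of different genes are compared only as CPM per kilobase (kb) of exon that lies outside other genes, given as the mean of the 6 libraries. Coordinates are GRCm38 and give the whole gene.

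Of the 2 glucose transporters, Slc2a4 was the more abundant, at 88.7 CPM per kb against 3.53 CPM per kb for Slc2a1. Slc2a4 (chr11:69942539-69948188), which encodes the insulin-responsive GLUT4 of muscle and fat, made up 96.2% ± 1.36 (SD, n = 6 libraries, from 93.9% to 97.8%) of the summed level per kb. Its level was 309, 279 and 299 CPM in WT1, WT2 and WT3 and 327, 318 and 320.1 CPM in KO1, KO2 and KO3. The 3 KO libraries all lay above the 3 WT libraries by library name, one of 2 genes of the set (with Suclg1) whose groups did not overlap in that reading, where 5.94% of all genes tested did not overlap. The difference was small beside its error, at 0.12 (SE 0.14) by library name and -0.07 (SE 0.13) by genotype field. Slc2a1 (chr4:119108711-119137983), which encodes GLUT1, the transporter of basal uptake, was at 7.86, 3.45 and 5.3 CPM in WT1, WT2 and WT3 and 5.39, 3.92 and 2.84 CPM in KO1, KO2 and KO3. WT1 was highest and KO3 lowest, 2.77-fold apart, and the groups overlapped in both readings. Only 38.7% of its exon length is free of other genes, and its log2 fold change was -0.46 (SE 0.36) by library name and -0.03 (SE 0.38) by genotype field.

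Hexokinase, which traps glucose as glucose-6-phosphate, was split between 2 genes at similar levels. Hk2, the insulin-regulated form of muscle, was at 28.9 CPM per kb and Hk1, the widespread form, at 22.9 CPM per kb, so that Hk1 took 43.9% ± 4.71 (SD, n = 6 libraries, from 36.4% to 50.3%). Which of them is higher depends on the length used: over the longest coding transcript, a length added after the values were seen, the share of Hk1 was 56.6%. Hk2 (chr6:82725025-82774454) was measured at 188, 169 and 171 CPM in WT1, WT2 and WT3 and at 172, 165 and 169 CPM in KO1, KO2 and KO3. Its highest library was only 1.14-fold above its lowest. Hk1 (chr10:62268855-62379908) stood at 187, 157 and 184 CPM in WT1, WT2 and WT3 and at 226, 186 and 126 CPM in KO1, KO2 and KO3. KO1 was its highest and KO3 its lowest library, so the spread lay within the libraries named KO; the log2 fold change was 0.03 (SE 0.20) by library name and 0.19 (SE 0.19) by genotype field.

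Pfkm, the muscle subunit of phosphofructokinase, the committed step of glycolysis, made up 93.1% ± 1.1 (SD, n = 6 libraries, from 91.6% to 94.2%) of the 3 subunits. It was at 284 CPM per kb, Pfkl (liver subunit) at 16.5 CPM per kb and Pfkp (platelet subunit) at 4.21 CPM per kb. Pfkm (chr15:98092589-98132451) was at 925, 689 and 878 CPM in WT1, WT2 and WT3 and at 993, 719.8 and 777 CPM in KO1, KO2 and KO3. KO1 and WT1 were highest and WT2 and KO2 lowest, and the log2 fold change was -0.0013 (SE 0.18) by library name and 0.08 (SE 0.17) by genotype field. Pfkl (chr10:77986947-78010083) was measured at 109, 116 and 116 CPM in WT1, WT2 and WT3 and at 128, 107 and 83.6 CPM in KO1, KO2 and KO3. By genotype field its KO libraries, at 116.4, 116 and 128 CPM, all lay above its WT libraries, the only gene of the set without overlap in that reading, where 12% of all genes tested did not overlap. Its log2 fold change was -0.10 (SE 0.17) by library name and 0.27 (SE 0.14) by genotype field, with a 95% interval of -0.05 to 0.58 in the second reading and an unadjusted p of 0.0896 (edgeR). Pfkp (chr13:6579768-6648777) stood at 38.5, 54.3 and 56.8 CPM in WT1, WT2 and WT3 and at 46.1, 67.4 and 56.5 CPM in KO1, KO2 and KO3, lowest in WT1 and highest in KO2, with overlap in both readings. Gpi1, which turns glucose-6-phosphate to fructose-6-phosphate, was at 601, 715 and 731 CPM in WT1, WT2 and WT3 and at 729, 729 and 638 CPM in KO1, KO2 and KO3. WT1 and KO3 were its lowest libraries, and its log2 fold change was 0.03 (SE 0.15) by library name and 0.14 (SE 0.14) by genotype field.

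Of the bifunctional enzymes that make and remove fructose 2,6-bisphosphate, the activator of phosphofructokinase, Pfkfb3 and Pfkfb1 were scarce. Pfkfb3 (chr2:11471433-11554077), the inducible form, was the higher at 2.45 CPM per kb. It was measured at 19.1, 15.5 and 17.7 CPM in WT1, WT2 and WT3 and at 22.2, 20.2 and 16.3 CPM in KO1, KO2 and KO3. Pfkfb1 (chrX:150588229-150643878), the form of liver and muscle, was at 0.842 CPM per kb, with 2.34, 3.53 and 2.81 CPM in WT1, WT2 and WT3 and at 3.52, 2.25 and 4.41 CPM in KO1, KO2 and KO3. Pfkfb2, the form typical of heart, cannot be set beside them, since so little of its exon length is free of other genes. Their log2 fold changes were 0.17 (SE 0.19) by library name and -0.0035 (SE 0.18) by genotype field for Pfkfb3, and 0.25 (SE 0.35) by library name and 0.12 (SE 0.35) by genotype field for Pfkfb1, whose groups overlapped in both readings.

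In the lower part of glycolysis the muscle isozymes carried most of the measured level of their step. The levels of Pgam1 and Eno1 are uncertain, since 40.6% and 44.3% of their 75-base transcript stretches occur in other genes too, against 0.0% for Pgam2 and Eno3. Pgam2 (chr11:5801640-5803733), whose upstream sequence is printed above, was at 899 CPM per kb against 18.9 CPM per kb for Pgam1, a share of 97.9% ± 0.444 (SD, n = 6 libraries, from 97.1% to 98.3%). Pgam2 stood at 536, 869.6 and 765 CPM in WT1, WT2 and WT3 and at 824, 774 and 764 CPM in KO1, KO2 and KO3. WT1 was set apart at the low end, the other 5 libraries lay between 764 and 869.6 CPM, and the log2 fold change was 0.12 (SE 0.19) by library name and 0.25 (SE 0.17) by genotype field. Pgam1 (chr19:41911923-41918660) was at 37.5, 36 and 37.4 CPM in WT1, WT2 and WT3 and at 35.5, 44.3 and 34.1 CPM in KO1, KO2 and KO3, with KO2 the highest. Eno3 (chr11:70657202-70662513) was at 471 CPM per kb against 22.3 CPM per kb for Eno1, a share of 95.5% ± 0.725 (SD, n = 6 libraries, from 94.5% to 96.4%). Eno3 was measured at 735, 759.9 and 854 CPM in WT1, WT2 and WT3 and at 939, 832 and 795 CPM in KO1, KO2 and KO3. KO1 was highest and WT1 lowest, with overlap in both readings. Over the longest coding transcript the share of Eno3 was 89.9%. Eno1 (chr4:150236721-150248879) stood at 92.8, 137 and 122 CPM in WT1, WT2 and WT3 and at 136, 139.7 and 91.6 CPM in KO1, KO2 and KO3. WT1 and KO3 were low and the other 4 libraries lay between 122 and 139.7 CPM. The log2 fold change of 0.06 (SE 0.20) by library name and 0.29 (SE 0.18) by genotype field was the highest of the set in the second reading, with an unadjusted p of 0.132 (edgeR).

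The remaining genes of this stretch have no second isozyme in the set. Tpi1, which interconverts the 2 triose phosphates, ranged from 566 CPM in WT1 to 705 CPM in KO1, with a log2 fold change of 0.09 (SE 0.15) by library name and 0.11 (SE 0.14) by genotype field. Pgk1, the first enzyme of glycolysis to yield ATP, ranged from 253 CPM in WT2 to 350.0 CPM in KO2, with 0.11 (SE 0.16) by library name and -0.14 (SE 0.15) by genotype field. Pkm, the pyruvate kinase of muscle, ranged from 686 CPM in KO3 to 833 CPM in KO1, with 0.02 (SE 0.15) by library name and 0.17 (SE 0.14) by genotype field. Tpi1 and Pkm shared KO1 as their highest library, and none of the 3 spanned 1.5-fold.

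Gapdh, the enzyme of the step that yields NADH, is known as an abundant enzyme, but its counts here were low. It was at 18.2, 8.67 and 14.9 CPM in WT1, WT2 and WT3 and at 7.16, 25.8 and 9.25 CPM in KO1, KO2 and KO3. KO2 and WT1 were the highest and KO1 the lowest library, 3.61-fold apart, the widest span of the tested genes. For KO over WT the log2 fold change was -0.0032 (SE 0.49) by library name and -0.78 (SE 0.39) by genotype field. Of the 75-base stretches of its transcripts, 55.5% also occur in transcripts of other genes, 121 genes in all. The same holds for 67.5% of the stretches of Pgk1, 44.3% of Eno1, 40.6% of Pgam1, 35.2% of Got2 and 23.6% of Pfkfb2, so the levels of these 6 genes are uncertain. The part of that sharing in their values was not tested.

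**Figure D2:**
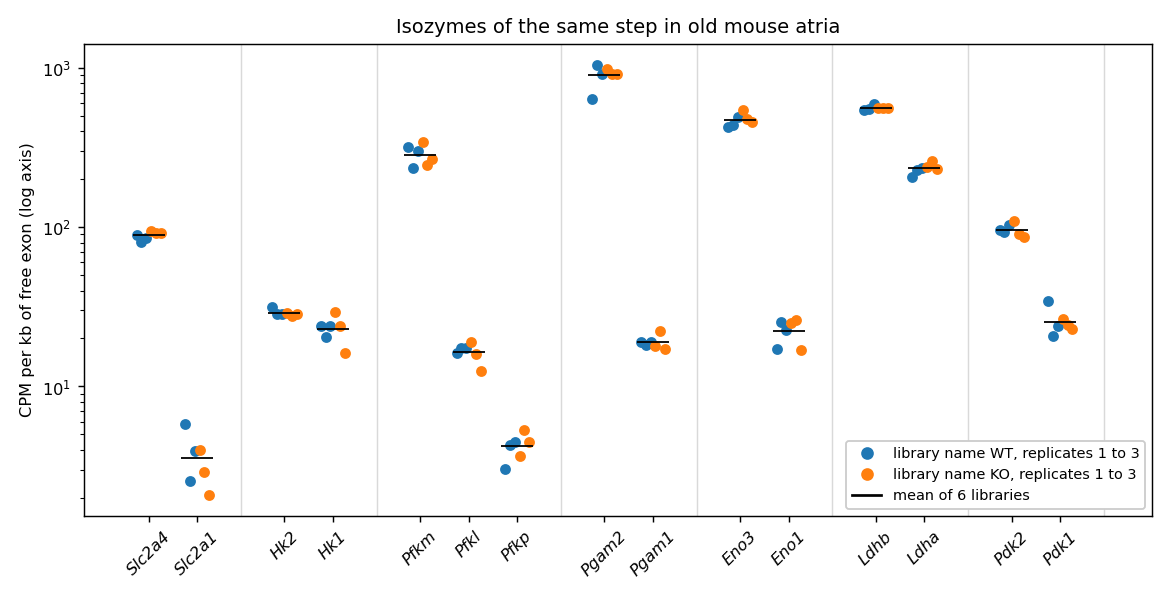
Level of each isozyme in CPM per kb of free exon (vertical log axis) for 7 steps, parted by vertical lines; points are single libraries, blue for library name WT and orange for KO in replicate order, and black bars are means of 6 libraries. In every library Pgam2 and Eno3 lie far above Pgam1 and Eno1, while Hk1 and Hk2 lie close together.

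The subunits of lactate dehydrogenase, which interconverts pyruvate and lactate, included the steadiest gene of the set. Ldhb, the heart subunit, was at 562 CPM per kb and Ldha, the muscle subunit, at 234 CPM per kb, so that Ldhb took 70.6% ± 1.39 (SD, n = 6 libraries, from 68.3% to 72.3%). Ldhb (chr6:142490249-142507957) was measured at 853, 865 and 936 CPM in WT1, WT2 and WT3 and at 885, 874 and 879 CPM in KO1, KO2 and KO3. Its highest library was 1.10-fold above its lowest. Ldha (chr7:46841475-46855627) stood at 688, 761 and 779.9 CPM in WT1, WT2 and WT3 and at 786, 856 and 769 CPM in KO1, KO2 and KO3, lowest in WT1 and highest in KO2. The log2 fold changes were -0.01 (SE 0.14) by library name and 0.04 (SE 0.13) by genotype field for Ldhb, and 0.11 (SE 0.14) by library name and 0.01 (SE 0.14) by genotype field for Ldha.

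For glycogen, Pygm (muscle glycogen phosphorylase, which releases glucose units) was at 232 CPM per kb and Gys1 (glycogen synthase of muscle) at 21.9 CPM per kb. Pygm (chr19:6384399-6398459) was at 789, 718 and 839.5 CPM in WT1, WT2 and WT3 and at 792, 656 and 682 CPM in KO1, KO2 and KO3. Gys1 (chr7:45434844-45456619) was measured at 103, 89.7 and 105 CPM in WT1, WT2 and WT3 and at 109, 78 and 78.5 CPM in KO1, KO2 and KO3. In both genes KO2 and KO3 were the lowest libraries and WT3 or KO1 the highest. The direction differed between the readings: the log2 fold change of Gys1 was -0.17 (SE 0.17) by library name and 0.23 (SE 0.15) by genotype field, and that of Pygm -0.14 (SE 0.15) by library name and 0.14 (SE 0.15) by genotype field, none of them past the test.

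Among the genes of the pyruvate dehydrogenase complex, Pdhb, the beta subunit of its first enzyme, was the highest at 149 CPM per kb. Pdhb (chr14:8165996-8173025) stood at 579, 487 and 586 CPM in WT1, WT2 and WT3 and at 619, 595 and 583 CPM in KO1, KO2 and KO3. WT2 was the lowest and the other 5 libraries lay within 579 to 619 CPM. Pdha1, the alpha subunit of the same enzyme, was far less even, and is named here because of that, after its values were seen. Pdha1 (chrX:160122209-160138413) was at 554, 197 and 322 CPM in WT1, WT2 and WT3 and at 411, 319 and 281 CPM in KO1, KO2 and KO3, 2.81-fold from WT2 to WT1. The gene overlaps Map3k15, 69.4% of its exon length is free of other genes, and 13.9% of its 75-base stretches occur in Map3k15 transcripts too. Its log2 fold change was -0.09 (SE 0.33) by library name and -0.31 (SE 0.32) by genotype field, with 95% intervals of -0.84 to 0.67 and -1.03 to 0.41.

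Dlat, the acetyl transferase at the core of the complex, ranged from 224 CPM in WT2 to 324 CPM in WT1, with a log2 fold change of -0.02 (SE 0.17) by library name and -0.06 (SE 0.16) by genotype field, so its extremes were the same libraries as for Pdha1.

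Of the kinases that shut the complex off, Pdk2 was at 96.2 CPM per kb and Pdk1 at 25.6 CPM per kb, so that Pdk2 took 79.1% ± 3.01 (SD, n = 6 libraries, from 73.4% to 81.9%) of the pair. Of the kinases outside the set, Pdk4 was above both, at 140.0 CPM per kb, and Pdk3 was at 12.4 CPM per kb. Pdk2 (chr11:95026258-95041354) was measured at 303, 296 and 325 CPM in WT1, WT2 and WT3 and at 344, 285 and 273 CPM in KO1, KO2 and KO3. Pdk1 (chr2:71873224-71903858) stood at 269, 161 and 187 CPM in WT1, WT2 and WT3 and at 208, 189 and 178 CPM in KO1, KO2 and KO3. WT1 was highest for Pdk1, and WT2 lowest, so both ends of its range were libraries named WT. The log2 fold changes were -0.03 (SE 0.15) by library name and 0.16 (SE 0.14) by genotype field for Pdk2, and -0.10 (SE 0.19) by library name and -0.20 (SE 0.18) by genotype field for Pdk1.

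The 13 TCA cycle genes lay within narrow bounds. Their log2 fold changes ran from -0.07 to 0.19 by library name, 10 above 0 and 3 below, and from -0.21 to 0.19 by genotype field, 6 above 0 and 7 below. Idh2, the NADP-dependent isocitrate dehydrogenase of mitochondria, was the highest at 410.0 CPM per kb, with Mdh2 at 386 CPM per kb. Which of them is higher depends on the length used. Mdh2 had more CPM in every library, and its longest coding transcript is shorter, at 1456 bases against 1745 for Idh2. Idh2 (chr7:80094846-80115392) was at 972, 1009 and 1216 CPM in WT1, WT2 and WT3 and at 1168, 1019 and 983 CPM in KO1, KO2 and KO3. WT3 and KO1 were its highest libraries, and the log2 fold change was -0.01 (SE 0.16) by library name and 0.19 (SE 0.14) by genotype field. Suclg1 (chr6:73248382-73276911), the alpha subunit shared by both succinyl-CoA ligases, was measured at 337, 319.5 and 358 CPM in WT1, WT2 and WT3 and at 364, 398 and 398 CPM in KO1, KO2 and KO3. By library name the KO libraries all lay above the WT libraries, and the log2 fold change was 0.19 (SE 0.14) by library name and -0.12 (SE 0.14) by genotype field. Suclg2 (chr6:95473009-95718800), the beta subunit of the GTP-forming ligase, stood at 136, 94.1 and 102 CPM in WT1, WT2 and WT3 and at 113, 117 and 105 CPM in KO1, KO2 and KO3. WT1 was highest and WT2 lowest, and the log2 fold change was 0.02 (SE 0.16) by library name and -0.21 (SE 0.14) by genotype field. Sucla2, the ATP-forming counterpart, was at 99.4 CPM per kb against 24 CPM per kb for Suclg2, and ranged from 288 CPM in WT2 to 392 CPM in WT1.

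Most other TCA cycle genes were lowest in WT2. Cs, citrate synthase, which begins the cycle, ranged from 916 CPM in WT2 to 1198 CPM in KO1, with a log2 fold change of 0.04 (SE 0.16) by library name and 0.04 (SE 0.16) by genotype field. The 3 subunits of the NAD-dependent isocitrate dehydrogenase differed in spread: Idh3a ranged from 426 CPM in WT2 to 599 CPM in WT3, Idh3b from 457 CPM in WT2 to 521 CPM in KO1 and Idh3g from 434 CPM in WT2 to 484 CPM in KO2. Their log2 fold changes lay between -0.07 and 0.06 over both readings. In the oxoglutarate dehydrogenase complex, Ogdh, its first enzyme, ranged from 1042 CPM in WT2 to 1489.6 CPM in KO1, Dlst, its core transferase, from 385 CPM in WT2 to 543 CPM in KO1, and Dld from 216 CPM in WT2 to 367 CPM in WT1. WT2 was the lowest library for all 3, while the highest was KO1 for Ogdh and Dlst and WT1 for Dld. Fh1, fumarase, ranged from 320.4 CPM in WT2 to 397 CPM in KO2, with 0.11 (SE 0.14) by library name and -0.10 (SE 0.14) by genotype field. Mdh2, the mitochondrial malate dehydrogenase that closes the cycle, was an exception with WT1 as its lowest library, and ranged from 1183 CPM in WT1 to 1517 CPM in WT3, with 0.07 (SE 0.16) by library name and 0.15 (SE 0.15) by genotype field.

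In the malate-aspartate shuttle, which carries the electrons of cytosolic NADH into the mitochondrion, Mdh1 was the highest at 904 CPM per kb. Mdh1 (chr11:21556787-21572367), the cytosolic malate dehydrogenase, was at 2478, 2019 and 2329 CPM in WT1, WT2 and WT3 and at 2267, 2414 and 2139 CPM in KO1, KO2 and KO3. Got2 (chr8:95864134-95888547), the mitochondrial aspartate aminotransferase, was measured at 454, 406 and 496 CPM in WT1, WT2 and WT3 and at 515, 463 and 439 CPM in KO1, KO2 and KO3. In both genes WT2 was the lowest library, as it was for Got1, the cytosolic aspartate aminotransferase, which ranged from 547 CPM in WT2 to 762 CPM in WT3. The log2 fold changes were -0.0014 (SE 0.15) by library name and -0.09 (SE 0.15) by genotype field for Mdh1, and 0.06 (SE 0.15) by library name and 0.06 (SE 0.14) by genotype field for Got2.

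Slc25a4, the heart and muscle exchanger of ADP and ATP across the inner mitochondrial membrane, was the most abundant gene of the set at 2011 CPM per kb. Slc25a4 (chr8:46206797-46211284) stood at 3646, 5137 and 5197 CPM in WT1, WT2 and WT3 and at 4633, 5014 and 4763 CPM in KO1, KO2 and KO3. WT1 was lowest, below the range of the other 5 libraries, and the log2 fold change was 0.04 (SE 0.17) by library name and 0.16 (SE 0.16) by genotype field. Slc25a3 (chr10:91116574-91124059), the phosphate carrier, was at 1410.3, 1459 and 1686 CPM in WT1, WT2 and WT3 and at 1672, 1605 and 1530.2 CPM in KO1, KO2 and KO3, with a log2 fold change of 0.08 (SE 0.15) by library name and 0.08 (SE 0.14) by genotype field. Ckmt2, the mitochondrial creatine kinase of striated muscle, was at 793 CPM per kb and Vdac1, the channel of the outer membrane, at 369 CPM per kb. Ckmt2 ranged from 973 CPM in WT2 to 1283 CPM in WT3 and Vdac1 from 841 CPM in WT2 to 1032 CPM in WT1. The log2 fold changes of all 4 carriers and kinases lay between 0.03 and 0.08 by library name and between -0.08 and 0.16 by genotype field.

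Across all 6 libraries the set varied little. The highest library was a median of 1.32-fold above the lowest over the 47 tested genes, and for 36 genes it was less than 1.5-fold. For the 45 genes with a mean above 10 CPM the median was 1.31-fold, against 1.47-fold for the 8846 genes tested above that level. Those 8846 genes were not matched to the set in level, and the part of abundance in this difference was not tested. Deviations from the mean of each gene were computed as log2 of CPM plus 0.5. The variation was uneven among the libraries. All 18 tested genes of the pyruvate dehydrogenase complex, its kinases and the TCA cycle were below their mean in WT2, with a median deviation of -0.23 on the log2 scale, while 17 of the 18 were above it in KO1, with a median of 0.12. The medians of these 18 genes in WT1, WT3, KO2 and KO3 were 0.05, 0.09, -0.02 and -0.06. Over the whole set, 8 of 47 genes were above their mean in WT2 (median -0.15) and 39 of 47 in KO1 (median 0.10). Over all 14708 genes tested, 7568 were above their mean in WT2 and 7721 in KO1. In WT2 this held for 0 of 2 glucose transporters, 0 of 2 lactate dehydrogenase genes, 0 of 2 glycogen genes and 0 of 3 shuttle genes. It held there for 1 of 4 carriers and creatine kinase. Both WT2 and KO1 have the genotype field KO, and by library name they stand in different groups. WT2 was also the library with the smallest total, 11574206 counts. Its level of Myh6, the cardiomyocyte myosin heavy chain, was 7606 CPM, beside 7607 CPM in KO2 and more in the other libraries. Other cardiomyocyte markers differed. Tnnt2 (7413 CPM) and Tnni3 (4356 CPM) were highest in WT2, Actn2 and Ttn were neither highest nor lowest there, and Ryr2 was low, at 935 CPM. The part of depth or of cardiomyocyte content in the deviation was not tested. The 14 genes of upper and lower glycolysis were not uniformly low in WT2, with 6 of 14 above their mean and a median of -0.04. They were lowest in KO3 (median -0.10, 3 of 14 above) and highest in KO1 (median 0.11). Over all genes tested the medians lay between -0.01 and 0.01.

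**Figure D3:**
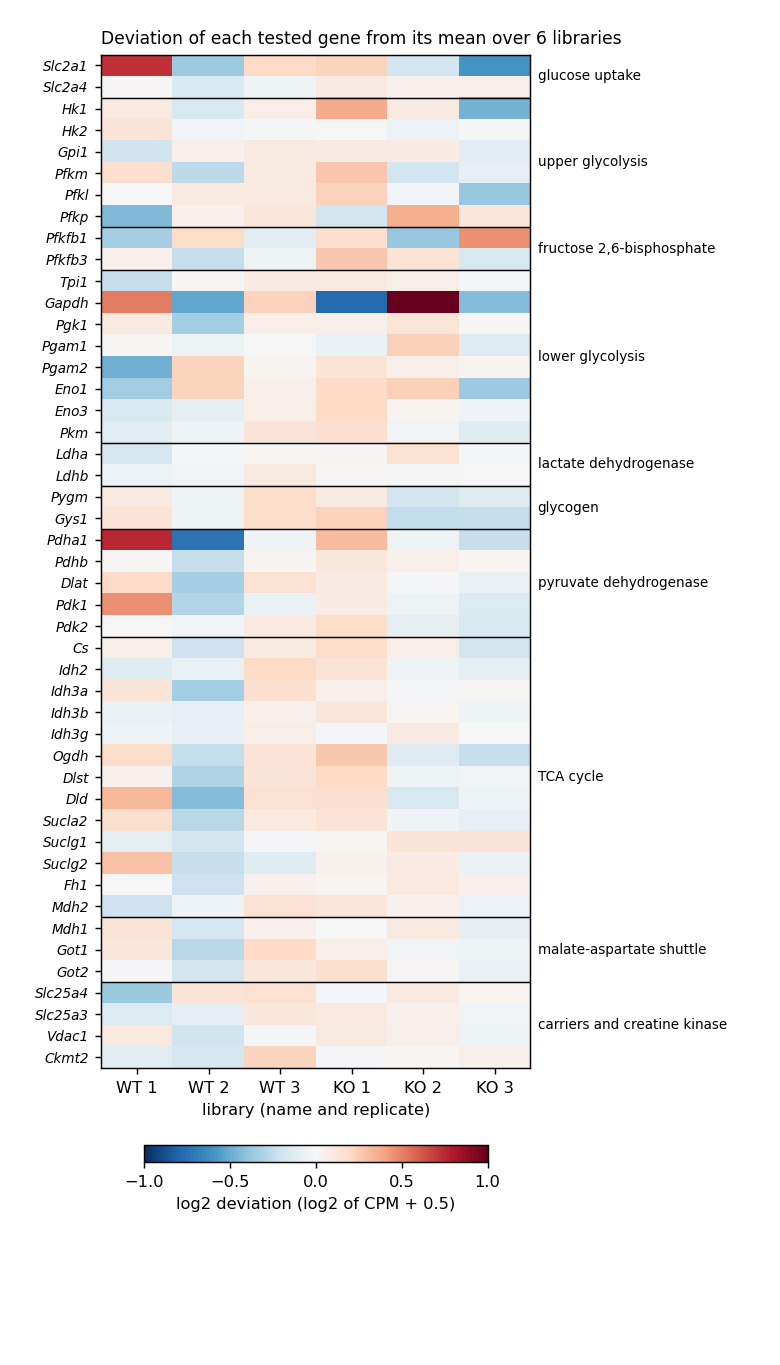
Colour gives the log2 deviation of each tested gene (rows, grouped by role) from its own mean over the 6 libraries (columns), from blue (lower) to red (higher). The WT2 column is blue, faintly or strongly, for every gene of the pyruvate dehydrogenase and TCA cycle groups, and the WT1 column mixes strong red (Pdha1, Slc2a1, Pdk1) with blue (Pgam2, Pfkp, Slc25a4).

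**Figure D4:**
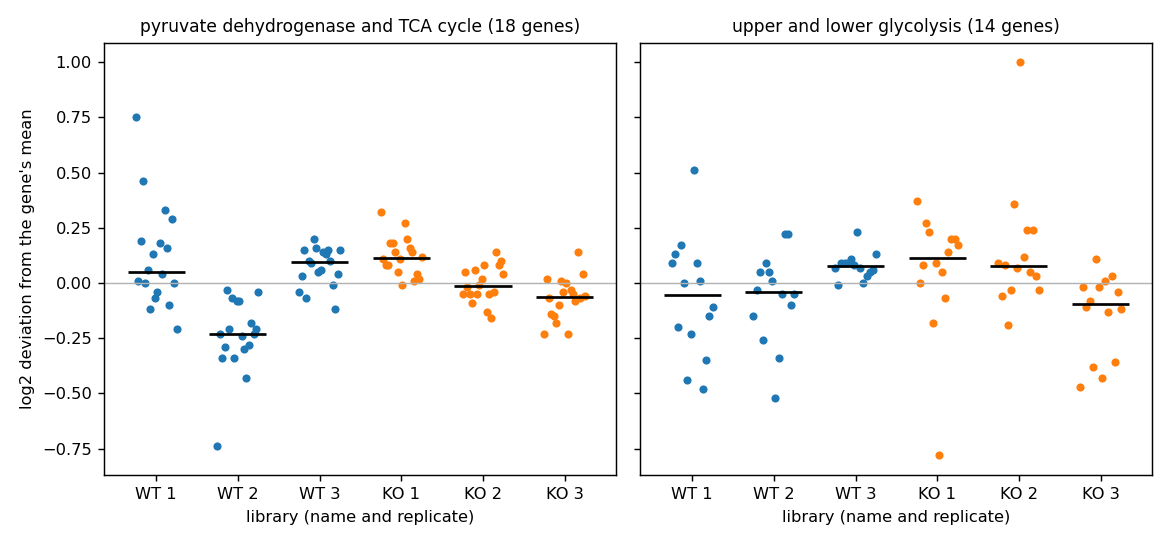
Each point is a gene, at its log2 deviation (vertical axis) in a library (horizontal axis); black bars are medians, blue is library name WT and orange is KO. On the left, the 18 pyruvate dehydrogenase and TCA cycle genes have a median of -0.23 in WT2 and 0.12 in KO1; on the right, the 14 glycolytic genes have medians between -0.10 and 0.11.

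In WT1 the set did not move as one. Pdha1, Slc2a1, Gapdh, Pdk1, Dld and Suclg2 were at least 0.29 above their mean there on the log2 scale, and Pgam2, Pfkp, Slc25a4, Eno1 and Pfkfb1 at least 0.33 below. Dld encodes the dihydrolipoamide dehydrogenase shared by the pyruvate and oxoglutarate dehydrogenase complexes. These genes were chosen by their deviation. Longer transcripts of the set tended to be higher in WT1: across the 47 genes, Spearman's rho between transcript length and deviation was 0.50 in WT1, 0.35 in KO1, -0.03 in WT3, -0.23 in WT2, -0.28 in KO2 and -0.45 in KO3. Across 14705 genes, rho between exon length and deviation was 0.32 in WT1 and -0.25 in WT2, and between -0.19 and 0.05 in the other 4. With GC content, rho over the 47 genes was 0.48 in WT2, 0.28 in KO1, 0.26 in WT3, -0.06 in KO2 and -0.34 in both WT1 and KO3. Genes of 1 library are not independent, so no test is attached to these values, and the part of length and GC content in the levels was not tested.

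Markers of cell types also differed between the libraries. Myh6, the main myosin heavy chain of the mouse heart, was measured at 12164, 7606 and 12081 CPM in WT1, WT2 and WT3 and at 12772, 7607 and 9191 CPM in KO1, KO2 and KO3, with WT2, KO2 and KO3 the low libraries. The summed level of the 6 cardiomyocyte markers lay between 22429.9 and 29693 CPM, lowest in KO2 and WT2, and that of the 5 atrial markers between 25389 and 32379 CPM. The cardiomyocyte markers Tnnt2 and Tnni3 were instead highest in WT2. The 5 ventricular markers summed to 115, 551 and 305 CPM in WT1, WT2 and WT3 and to 423, 109 and 91.9 CPM in KO1, KO2 and KO3, so the 3 libraries with the genotype field KO held the most. Myl2 and Myl3 were the largest parts of these sums. Irx4, at most 0.926 CPM, was also highest in those 3 libraries. Hey2 and Mpped2 were not, with log2 fold changes of 0.07 and -0.10 by genotype field. The 4 smooth muscle markers were highest in KO2 (349.8 CPM) and WT2 (337 CPM) and lowest in WT1 (133 CPM). The 5 brown adipocyte markers summed to 122 CPM in KO2 and to between 30.7 and 40.9 CPM in the other libraries. Ucp1 (57.4 CPM), Cidea (41.1 CPM), Dio2 (16.8 CPM) and Elovl3 (3.34 CPM) were highest in KO2. Ppara, also on that list, went the other way and was lowest in KO2, at 3.77 CPM. The 5 white adipocyte markers summed to 57.4 CPM in KO2, 49.3 CPM in WT2 and at most 35.7 CPM elsewhere. The 6 skeletal muscle markers stayed between 8.85 and 14.7 CPM, with Myh1 at 0 counts in all libraries. The part of cell type make-up in the levels of the set was not tested.

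The wider pathway was taken from a list of 103 further gene identifiers, of which 92 were tested. None of the 92 passed adjusted p 0.05 in either reading without a block (edgeR); at an unadjusted p under 0.05 there were 3 of 92 by library name, where 1.49% of all genes tested did so, and 11 of 92 by genotype field, where 5.69% did. Log2 fold changes were above 0 for 37 and below for 55 by library name and above for 41 and below for 51 by genotype field, with a median of -0.04 in both. Among 18 transcriptional regulators of metabolism, 2 were above 0 and 16 below by library name, with a median of -0.19, and 10 above and 8 below by genotype field, with a median of 0.08. Over all genes tested, 45.5% were above 0 by library name and 48.1% by genotype field. The split of the regulators was the same under both other scalings, and it was not counted with a library left out. KO2 was the lowest library for Ppargc1a, Ppargc1b, Esrra, Esrrg, Mef2a, Mef2d, Mlxip, Mlxipl, Klf15, Ppara and Ppard, and not for the other tested regulators. For Mef2a, WT2 and KO2 both stood at 1.09 CPM. The share of all tested genes that were lowest in KO2 was not counted. The part of KO2 in the split was not tested. Aldoa, the aldolase of muscle, is not one of the 48 genes but belongs to their pathway. Its symbol stands for 2 identifiers: ENSMUSG00000114515, with no exon free of other genes, had 0 counts in all libraries, and ENSMUSG00000030695 stood at 1951, 2836 and 2811 CPM in WT1, WT2 and WT3 and at 2541, 2743 and 2568 CPM in KO1, KO2 and KO3, with 49.4% of its exon length free and a log2 fold change of 0.05 (SE 0.17) by library name and 0.17 (SE 0.17) by genotype field.

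By library name the 3 pathway genes with the smallest p were Ppargc1a, Gpd1 and Ppp1r3a. Ppargc1a, which encodes PGC-1alpha, a coactivator of mitochondrial genes, was at 95.4, 56 and 84.8 CPM in WT1, WT2 and WT3 and at 53.3, 40.5 and 63.9 CPM in KO1, KO2 and KO3, with a log2 fold change of -0.58 (SE 0.22) by library name and -0.04 (SE 0.30) by genotype field and an unadjusted p of 0.0234 in the first reading (edgeR). Ppp1r3a, which targets a phosphatase to glycogen, was measured at 146, 56.4 and 80.6 CPM in WT1, WT2 and WT3 and at 62.7, 43.3 and 60.7 CPM in KO1, KO2 and KO3. WT1 was far above the other 5. The log2 fold change was -0.76 (SE 0.32) by library name and -0.32 (SE 0.43) by genotype field, and without WT1 it was -0.30 by library name. Gpd1, glycerol-3-phosphate dehydrogenase, stood at 8.58, 12 and 8.68 CPM in WT1, WT2 and WT3 and at 12.3, 35 and 11.6 CPM in KO1, KO2 and KO3. KO2, the library with the most adipocyte marker RNA, was set apart, only 17.9% of the exon length of Gpd1 is free of other genes, and the log2 fold change was 1.01 (SE 0.42) by library name and -0.74 (SE 0.50) by genotype field. Without KO2 it was 0.30 by library name, and the part of adipocyte content in the level of Gpd1 was not tested. The adjusted p of all 3 was 0.99993 in edgeR.

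By genotype field the 2 pathway genes with the smallest p were Ckb and Esrra. Ckb, the brain-type creatine kinase, was at 47.9, 94.8 and 73.2 CPM in WT1, WT2 and WT3 and at 79.3, 57.9 and 50.5 CPM in KO1, KO2 and KO3. The libraries with the field KO lay at 73.2, 79.3 and 94.8 CPM and those with the field WT at 47.9, 50.5 and 57.9 CPM. Esrra, the estrogen-related receptor alpha, a nuclear receptor that acts on genes of oxidative metabolism, was measured at 53.9, 96 and 98.4 CPM in WT1, WT2 and WT3 and at 86.4, 48.7 and 71.8 CPM in KO1, KO2 and KO3, again without overlap by genotype field. The log2 fold changes by genotype field were 0.66 (SE 0.15) for Ckb and 0.69 (SE 0.16) for Esrra, with an adjusted p of 0.595 for both (edgeR). With the replicate number as a block, which is an assumed pairing, both passed, with adjusted p = 0.0332 for Ckb and 0.0307 for Esrra (edgeR). Over the 18 alternative fits the adjusted p ran from there to 0.99998. In the 3 libraries with the field KO, Myl2, the ventricular myosin light chain, was higher too, at 32.6, 357 and 175 CPM in WT1, WT2 and WT3 and at 251, 25.7 and 33.4 CPM in KO1, KO2 and KO3. Its log2 fold change by genotype field was 3.09 (SE 0.25) with an adjusted p of 0.00386 (edgeR), so this ventricular marker is 1 of the 2 genes that passed in that reading. Its part in the values of Ckb and Esrra was not tested.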

How the data were processed

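Read counts per Ensembl gene were deposited by the authors as unscaled whole numbers for 6 atrial libraries. Per the labels' protocols, each TruSeq v2 library, a kind without strand information, took 1 µg of RNA. HISAT2 2.1.0 and featureCounts 1.5.0-p3 are named in the submitters' processing notes, beside FastQC 0.11.5 and MultiQC 1.7 and the build GRCm38. No source used here gives the read length, annotation release or feature type. Overlapping genes were counted in part or not at all: 98.0% of 1378 protein-coding genes that lie wholly within others are at 0, against 19.6% of 19568 with at least 50% of the body free.

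From these counts (11574206 to 24138824 per library) genes were filtered with filterByExpr, scaled by TMM (factors 0.946 to 1.028) and tested two-sided with edgeR 4.0.16 (R 4.3.3, robust quasi-likelihood fit), adjusted over 14708 genes at 0.05. The SE was taken from the estimate and the F statistic, and 95% intervals from its degrees of freedom. The genes and lists were chosen with earlier results of these data known. Named with the value in every library were, per role, the 2 genes with the smallest p over both readings, the gene with the highest level per kb and all isozymes, plus the 3 other pathway genes with the smallest p per reading; any others were picked with their values in view. Of the genes so chosen, 1 is not reported here. Gene positions and exon lengths come from GENCODE M21.

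Same-numbered libraries deviated together over all tested genes, with correlations of 0.16, 0.16 and 0.12 by library name and 0.27, 0.23 and 0.12 by genotype field. The replicate number of the titles was therefore taken as a pairing, and a fit with it as a block was run. Other pairings were not compared, so the block rests on an assumed pairing. Other alternatives were RLE and upper-quartile scaling, DESeq2 1.42.0, limma-voom (limma 3.58.1), no low-count filter, each library left out, series and Y-linked covariates, abundant genes left out, subsets of libraries and other exon lengths. Of these fits, only the main edgeR fit by library name was also run on simulated counts.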

Additional observations from a re-analysis of the deposited data

How the results depend on the processing

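In all 18 alternative fits of each reading, and at an adjusted p threshold of 0.1, 0 of the 48 genes passed. Their median log2 fold change ran from -0.06 to 0.09 by library name and from -0.02 to 0.10 by genotype field, and the number above 0 from 16 to 39 and from 20 to 34. At an unadjusted p under 0.05 single genes appeared: Gapdh without KO2 by library name, and by genotype field Gapdh (DESeq2, without WT3 or KO3, without KO2 and WT3 together), Eno1 (replicate block, without KO2, without KO2 and WT3 together), and Gys1 and Pfkl (without WT1).

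Counts over all genes moved more. By library name 0 genes passed, against 1 with no low-count filter, 3 in the numbered libraries alone and 6 without WT2 and KO3, the libraries at odds with Prkce; leaving out 1 library gave 0 to 4 (2 without WT1, 4 without WT3). By genotype field 2 passed, against 27 with DESeq2, 1 with limma-voom, 25 with no filter, 51 with the replicate block, 7 with the series covariate, 3 in the numbered libraries alone and 3 without KO2 and WT3; leaving out 1 library gave 0 to 2 (0 without WT1 or KO3, 1 without WT2, WT3 or KO2). The block changed no other call of a gene named, apart from Ckb and Esrra. Ckb also passed with DESeq2 (0.65, adjusted p = 0.0499), and Esrra with no filter (0.69, adjusted p = 0.0481). Prkce passed by library name without WT2 and KO3, at -2.20, a choice of libraries made on Prkce itself, and turned to 0.30 by genotype field in the numbered libraries. By genotype field, Pdk1 ran from -0.31 to 0.01 when 1 library was left out (0.01 without WT1), and Got2 from -0.002 (without KO1) to 0.15, with -0.0032 in the numbered libraries. Prkce ran from -1.86 (without KO3) to -0.46 (without KO2) by library name and from -1.17 (without WT3) to -0.0026 (without WT1) by genotype field, and Slc2a1 from -0.72 (without KO1) to -0.13 (without WT1) by library name. Over the 18 alternative fits by library name, Gapdh ran from -0.77 to 0.55, Pdha1 from -0.37 to 0.38, Eno1 from -0.16 to 0.36 and Pfkl from -0.28 to 0.06, so their direction is not settled; by genotype field Pdha1 ran from -0.57 to 0.04. The cause of these moves was not tested.

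Over the longest coding transcript, added after the values were seen, shares were 98.8% for Slc2a4, 56.6% for Hk1, 87.0% for Pfkm, 89.9% for Eno3 and 61.4% for Ldhb; over the full exon length Slc2a4 took 98.5%. Depth limits the scarce genes: the lowest count was 41 for Slc2a1 and 103 for Gapdh, both in WT2, and 31 for Pfkfb1, in KO2.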

Other observations

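Pdk4 and Ppard, both counted above among the 92 tested genes of the wider pathway, are described here because of their values, and no explanation was tested. Pdk4, the pyruvate dehydrogenase kinase induced by fasting and fatty acids, stood at 282, 530.4 and 896 CPM in WT1, WT2 and WT3 and at 385, 318 and 539 CPM in KO1, KO2 and KO3. WT3 was 3.17-fold above WT1, so the libraries named WT spanned more than those named KO. Its log2 fold change was -0.46 (SE 0.39) by library name and 0.67 (SE 0.34) by genotype field, with an unadjusted p of 0.0844 in the second reading and, with the replicate block, 0.64 (SE 0.15) at an adjusted p of 0.071 (edgeR; 0.071 to 0.99998 over the 18 alternative fits). Ppard, the peroxisome proliferator-activated receptor delta, had a log2 fold change of -0.37 (SE 0.20) by library name and 0.52 (SE 0.16) by genotype field, with an unadjusted p of 0.00686 and an adjusted p of 0.768 in the second reading (edgeR).

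Ucp1, the uncoupling protein that marks brown adipocytes, stood at 57.4 CPM in KO2 and at most 3.54 CPM in the other 5 libraries. KO2 also had the highest Gpd1, and a link between them was not tested.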
